A study of Mus musculus with 8 samples.

Results

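Dividing cells were taken from the D1Tom sort, in which cells of the mouse frontal isocortex at postnatal day 7 (P7) were collected by flow cytometry for red fluorescence from the Drd1a-tdTomato transgene. Members were chosen by their own counts of cell cycle genes. A cell was taken as dividing when it had at least 1 count of Top2a, at least 1 of Mki67 and at least 1 of Cenpf or Prc1. The rule found 746 of the 11494 cells in the 4 D1Tom libraries. All 4 libraries carried the transgene, a bacterial artificial chromosome reporter that uses sequence of the dopamine D1 receptor gene, and Foxp2 flox/flox alleles. The 2 cKO libraries carried Emx1-Cre in addition, which removes the floxed segment in the Emx1 lineage of the dorsal forebrain, so that cells of other origin in the same tissue keep Foxp2. Per the labels, control 1 and cKO 1 (both female) were prepared as batch 1, and control 2 (female) and cKO 2 (male) as batch 2 on another day. The labels do not say how many animals went into a library, so a p-value over the 2 libraries of a group measures only the spread between these libraries. Lineages were described by counts of Pdgfra, Aqp4 and Dlx2, and by library.

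At the end of the first postnatal week the cortex has stopped making its projection neurons, while glia are still multiplying. Oligodendrocyte precursors, marked by the platelet-derived growth factor receptor Pdgfra, and young astrocytes, marked by the water channel Aqp4, divide within the cortex itself. Interneuron progenitors of the ventral forebrain and the subventricular zone express the homeobox gene Dlx2, and their offspring migrate as neuroblasts.

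Top2a encodes the topoisomerase that untangles chromosomes before they separate, and Mki67 encodes a protein that coats mitotic chromosomes. Cenpf encodes a kinetochore protein, and Prc1 encodes a protein that bundles the microtubules of the central spindle. The genes that peak in G2 and mitosis share promoter elements, the CCAAT box and the cell cycle homology region (TTTGAA), whereas genes of DNA replication more often carry E2F sites. The 150 bases before the annotated start of each rule gene are shown 5′ to 3′ on the gene's strand, because these 4 genes define the cells. Capitals mark CCAAT or TTTGAA on either strand. The sequences are from RefSeq on GRCm38.p6, at chr11:99024190-99024339 for Top2a (minus strand), chr7:135716380-135716529 for Mki67 (minus strand), chr1:189688087-189688236 for Cenpf (minus strand) and chr7:80294326-80294475 for the second of the annotated starts of Prc1 (plus strand).
Top2a: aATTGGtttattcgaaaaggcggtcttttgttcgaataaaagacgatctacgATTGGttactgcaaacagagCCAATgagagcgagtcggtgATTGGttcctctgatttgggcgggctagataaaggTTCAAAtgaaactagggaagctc
Mki67: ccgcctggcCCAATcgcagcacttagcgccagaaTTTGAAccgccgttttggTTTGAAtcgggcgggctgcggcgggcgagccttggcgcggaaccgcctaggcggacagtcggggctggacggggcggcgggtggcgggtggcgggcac
Cenpf: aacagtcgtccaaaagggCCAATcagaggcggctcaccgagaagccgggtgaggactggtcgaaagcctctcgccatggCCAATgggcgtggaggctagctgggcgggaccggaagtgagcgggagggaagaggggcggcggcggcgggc
Prc1: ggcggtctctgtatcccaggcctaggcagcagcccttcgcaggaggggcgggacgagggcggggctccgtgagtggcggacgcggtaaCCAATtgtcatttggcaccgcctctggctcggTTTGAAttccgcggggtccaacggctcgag
Within the full 250 bases before these starts, CCAAT was found in all 4 genes and TTTGAA in Top2a, Mki67 and Prc1. The window of the other annotated start of Prc1 held CCAAT but no TTTGAA. Of 32851 RefSeq promoters of the same length, 33.8% held CCAAT and 15.99% held TTTGAA. None of 4 E2F sites (TTTGGCGC, TTTCGCGC, TTTGGCGG, TTTCCCGC) was found in these windows, against 1.96% of all promoters with at least 1 of them. These matches describe letters in a window, not sites in use.

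Libraries held 2395 to 3206 cells, where the labels give a target of 1000 cells per sample, with 27323298 to 36379194 counts in all and a median of 7198 to 12815 counts per cell. Only 97 barcodes occurred in more than 1 D1Tom library, and 12 dividing cells carried one. Dividing cells were deeper than the rest of their own library in every case. Control 1 had a median of 12770 counts per dividing cell, control 2 of 16321, cKO 1 of 14236 and cKO 2 of 11714. The other cells had medians of 7902, 12459, 6949 and 6906 in the same order. A rule that asks for counts of several genes picks deep cells, so shares of cells with a count are also given after thinning to 2000 counts. Cells with fewer counts than a thinning depth were left out at that depth. At 2000 counts this kept 2919 (control 1), 2167 (control 2), 2512 (cKO 1) and 2755 (cKO 2) of the other cells.

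The values that chose the cells were as follows. Of the members, 552 had counts of all 4 genes, 131 had Cenpf without Prc1 and 63 had Prc1 without Cenpf. Just outside the rule were 79 cells with Top2a and Mki67 but neither of the others, 258 cells with Top2a but no Mki67, and 171 cells with Mki67 but no Top2a, the last 2 sets with Cenpf or Prc1. Members had a median of 19 counts over the 4 genes together, and these 3 neighbouring sets had a median of 4. Of 45 mitosis genes on a fixed list, the members had a median of 27 with a count, the cells with Top2a and Mki67 only had 11, and cells with none of the 4 genes had 1. Of 26 replication genes the medians were 6, 8 and 1. The 258 cells without Mki67 and the 171 without Top2a had medians of 9.5 and 12 mitosis genes and of 4 and 2 replication genes. All 3 neighbouring sets were thus below the members in mitosis genes, and only the set of 79 was above them in replication genes.

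By library, 139 of 3206 cells of control 1 were dividing (4.34%, exact 95% binomial interval 3.66 to 5.10%). In control 2 the count was 227 of 2395 (9.48%, 8.33 to 10.7%). In cKO 1 it was 139 of 2812 (4.94%, 4.17 to 5.81%), and in cKO 2 it was 241 of 3081 (7.82%, 6.90 to 8.83%). Both libraries of batch 2 were higher than both of batch 1, and the groups overlapped. The cKO mean of 6.38% ± 2.04 (SD, n = 2) and the control mean of 6.91% ± 3.64 (SD, n = 2) differed by less than the spread between libraries (exact two-sided permutation p = 1, with 0.333 the smallest value that 2 against 2 libraries allow). Within batch 1 the cKO library was 0.607 percentage points higher, and within batch 2 it was 1.66 points lower (cKO minus control, -1.66). The difference turned positive without control 2 (2.05) or without cKO 1 (0.915). At 4000 counts per cell the shares were 3.57%, 3.89%, 3.63% and 3.91% in control 1, control 2, cKO 1 and cKO 2, and at 2000 counts they were 1.64%, 1.59%, 1.62% and 1.04%. Among the cells with at least 4000 counts, thinned to that depth, the gap between batches was thus much smaller. Both libraries of batch 2 were still higher there. Thinning also changes which cells are counted, and the 2 effects were not separated. That order was not kept at 2000 counts. These intervals cover counting error only.

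**Figure D1:**
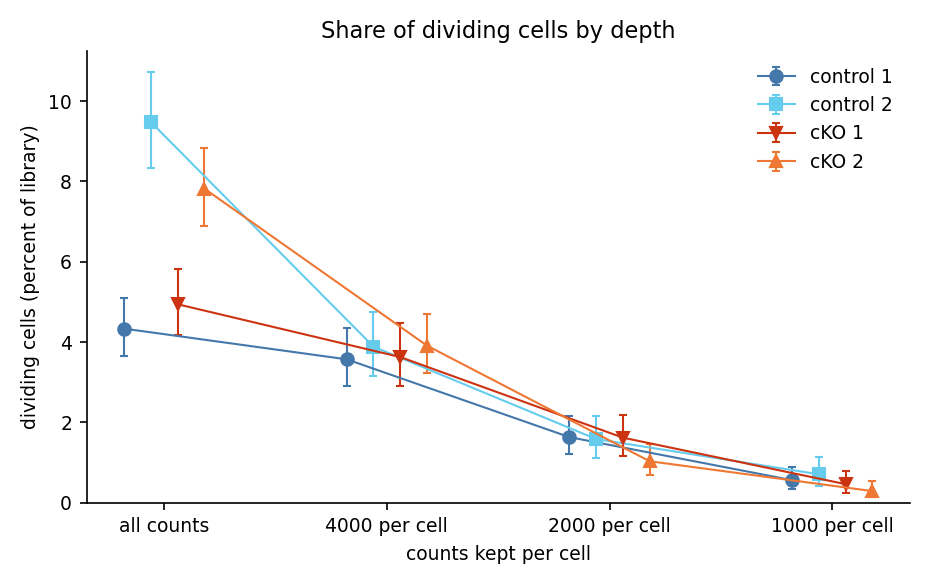
Percent of the cells of each D1Tom library that met the rule for dividing cells (vertical axis) with all counts and after thinning each cell to 4000, 2000 or 1000 counts (horizontal axis), with exact 95% binomial intervals. Cells with fewer counts than a depth were left out at that depth. Control 2 and cKO 2 stand at 9.48% and 7.82% with all counts, and the 4 libraries lie between 3.57% and 3.91% at 4000 counts.

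Most dividing cells carried a glial lineage gene. A count of Aqp4 was found in 69.7% of them and a count of Pdgfra in 54.4%, against 51.5% and 27.5% of the other cells. After thinning to 2000 counts, with the members kept as chosen, Pdgfra was found in 35.8% of the dividing and 16.1% of the other cells, and Aqp4 in 36.2% and 31.5%. Aqp4 counts are thus widespread in the sort and are a weak mark of an astrocyte on their own.

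Sorted by which of the 3 genes had any count, 233 dividing cells had Aqp4 alone, 134 had Pdgfra alone, 27 had Dlx2 alone, 309 had more than 1 and 43 had none. Of the 309, 196 held Pdgfra with Aqp4, 22 Pdgfra with Dlx2, 37 Aqp4 with Dlx2 and 54 all 3. Assigned to the gene with the largest count, 144 of these went to Pdgfra, 107 to Aqp4 and 44 to Dlx2, and 14 were ties. A doublet, a droplet with a pair of cells, can also show more than 1 lineage gene. Cells with the highest doublet scores (0.8% per 1000 cells of a library) were 10 of the 27 such cells of control 1, but 1 of 98 (control 2), 5 of 46 (cKO 1) and 2 of 138 (cKO 2). Among all dividing cells they were 10.1%, 0.881%, 4.32% and 1.66%, against 2.56%, 1.92%, 2.24% and 2.47% of all cells of the same libraries. The share among dividing cells was thus above that of the whole library in control 1 and cKO 1, and below it in control 2 and cKO 2.

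Aqp4 alone cells made up 40.3% of the dividing cells of control 1 (56 of 139) and 38.3% of those of control 2 (87 of 227). The shares under cKO were 25.9% (36 of 139) for cKO 1 and 22.4% (54 of 241) for cKO 2. Both cKO libraries were below both controls. The means were 39.3% ± 1.39 and 24.2% ± 2.47 (SD, n = 2 each), a difference of -15.2 percentage points at the smallest p the design allows (exact permutation p = 0.333). The difference was -14.4 points in batch 1 and -15.9 in batch 2. When the rule was applied after thinning to 2000 counts, the shares were 19 of 50, 9 of 38, 12 of 43 and 7 of 31 in control 1, control 2, cKO 1 and cKO 2. There the groups overlapped and the difference was -5.60 points (exact permutation p = 0.667). At 4000 counts it was -7.14 points, and with at least 3 counts asked of the lineage gene -7.69, with both cKO libraries below both controls in each. The size of the difference therefore depends on depth and on how the class is cut. Any count of Aqp4 was found in 59.7% (control 1), 80.2% (control 2), 54.7% (cKO 1) and 74.3% (cKO 2) of dividing cells. These groups overlapped, with a difference of -5.47 points (exact permutation p = 0.667) that turned positive without control 2 (4.76) or cKO 1 (4.33). Cells with more than 1 of the 3 genes made up 19.4%, 43.2%, 33.1% and 57.3% of dividing cells in the same order, 13.9 points more in the cKO libraries (exact permutation p = 0.667). Among other cells the Aqp4 alone class made up 32.7% and 33.6% (controls) and 30.2% and 36.4% (cKO), so that the groups overlapped.

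Pdgfra alone cells made up 32.4% (control 1), 10.6% (control 2), 29.5% (cKO 1) and 9.96% (cKO 2) of the dividing cells. These shares followed the batch and not the group, and the cKO minus control difference of -1.75 points was small beside it (exact permutation p = 0.667). It turned positive without control 1 (9.15) or without cKO 2 (8.02). Any count of Pdgfra was found in 51.1% of dividing cells in each control, and in 57.6% and 57.7% in cKO 1 and cKO 2. This depended on depth. The cKO minus control difference of 6.52 points was 0.0692 at 4000, 0.423 at 2000 and 12.7 at 1000 counts per cell.

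Dlx2 alone cells were rare in the controls, with 1 of 139 in control 1 (0.719%) and 3 of 227 in control 2 (1.32%). In cKO 1 there were 10 of 139 (7.19%) and in cKO 2 13 of 241 (5.39%). Both cKO libraries were above both controls (1.02% ± 0.426 and 6.29% ± 1.27, SD, n = 2 each; exact permutation p = 0.333). By largest count there were 2, 5, 18 and 46 such cells in control 1, control 2, cKO 1 and cKO 2. Any count of Dlx2 was found in 2.88%, 8.37%, 19.4% and 37.3% of dividing cells, and in 8.18%, 8.39%, 13.6% and 11.4% of the other cells. By any count the cKO libraries were therefore higher in both populations, by 22.8 percentage points among dividing and 4.22 among other cells (exact permutation p = 0.333 each). Dlx2 alone cells made up 6.10% (control 1), 3.64% (control 2), 8.75% (cKO 1) and 3.13% (cKO 2) of the other cells. By that class the groups overlapped among other cells. When the rule was applied after thinning to 2000 counts, 0 of 50, 2 of 38, 4 of 43 and 8 of 31 dividing cells held Dlx2. The 0 of 50 in control 1 allows a share of up to 6.00% (3 counts of the total), and its exact 95% upper bound is 7.11%. These few cells make the comparison coarse.

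**Figure D2:**
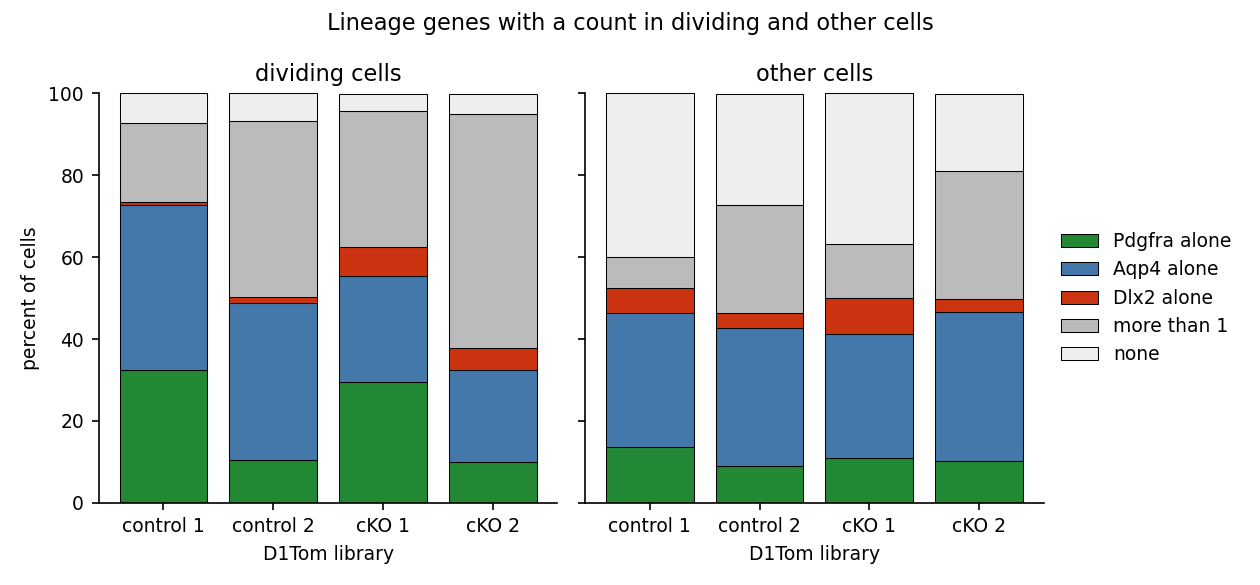
Percent of dividing (left) and other (right) cells in each D1Tom library by which of Pdgfra, Aqp4 and Dlx2 had a count; bars are stacked to 100. Among dividing cells, Aqp4 alone cells reach 40.3% and 38.3% in control libraries but 25.9% and 22.4% under cKO.

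Read the other way, the share of each class that was dividing can be set side by side. Among Pdgfra alone cells it was 9.68% (control 1), 10.9% (control 2), 12.3% (cKO 1) and 7.69% (cKO 2). Among Aqp4 alone cells it was 5.29%, 10.7%, 4.27% and 4.96%. The Pdgfra class was higher in 4 of 4 libraries, by 3.83 ± 3.28 percentage points (SD, n = 4), although by little in control 2. The exact sign-flip permutation p was 0.125, the smallest that 4 libraries allow, and 0.375 after Benjamini-Hochberg adjustment over the 3 pairs of classes. The difference was 2.43 points without cKO 1. It depended on the rule, with 2 of 4 libraries higher when at least 2 counts were asked of each rule gene (2.47 points) or when all 4 rule genes were asked for (1.45 points; exact permutation p = 0.5 each), and 3 of 4 with Top2a and Mki67 alone (4.26 points; exact permutation p = 0.250). Among Dlx2 alone cells it was 0.532%, 3.66%, 4.10% and 12.7%, a wider range than in either glial class. The Pdgfra alone cells exceeded them by 4.87 ± 6.66 points (exact permutation p = 0.250, adjusted 0.375), and the Aqp4 alone cells by 1.04 ± 6.54 (exact permutation p = 0.875, adjusted 0.875), a difference that turned negative without control 1 (-0.200) or control 2 (-0.951).

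Marker lists widen this description from 1 gene to several, though Pdgfra, Aqp4 and Dlx2 are each a member of 1 of these lists. A cell was said to hold a list when 2 or more counts were found for enough of its genes, which meant 4 of 8 for oligodendrocyte precursors, 5 of 10 for astrocytes, 6 of 11 for neuroblasts and interneurons, 4 of 7 for endothelial cells, 3 of 5 for mural cells and 4 of 8 for microglia. Of the dividing cells, 426 held the astrocyte list, 310 the oligodendrocyte precursor list and 105 the neuroblast and interneuron list. The endothelial list was held by 57, the mural list by 52 and the microglial list by 14, and 52 held none of the 6. These counts overlap, since 208 dividing cells held 2 lists and 30 held 3, against 714 and 71 of the 10748 other cells. By library, 15.1% (control 1), 37.4% (control 2), 16.5% (cKO 1) and 32.8% (cKO 2) of dividing cells held 2. The astrocyte list and no other was held by 231, the oligodendrocyte precursor list alone by 166 and the neuroblast and interneuron list alone by 42. The endothelial list alone was held by 6, the mural list alone by 2 and the microglial list alone by 9. Most holders of a vascular list thus held another list too. Of the Pdgfra alone dividing cells 94.0% held the oligodendrocyte precursor list, and of the Aqp4 alone dividing cells 84.5% held the astrocyte list. Of the 27 Dlx2 alone dividing cells, 21 held the neuroblast and interneuron list. Among the other cells of these classes the lists were held by 65.6% (Pdgfra alone), 70.9% (Aqp4 alone) and 69.4% (Dlx2 alone). Since each list holds the gene that defines its class, these shares partly restate the class.

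The neuroblast and interneuron list was held by few dividing cells of control 1 (2 of 139) and control 2 (17 of 227), and by more of cKO 1 (22 of 139) and cKO 2 (64 of 241). Among other cells it was held by 219 of 3067, 155 of 2168, 298 of 2673 and 175 of 2840. Among other cells the groups overlapped, and cKO 2 had the smallest share. Vascular lists were uneven across libraries as well. The endothelial list was held by 3, 37, 4 and 13 dividing cells (controls first, then cKO). For the mural list these numbers were 4, 30, 3 and 15. Of these, 48 held both. Control 2 supplied most of them, and its Aqp4 alone class held 20 of the 29 endothelial list cells of that class. The part of these cells in the group differences was not tested.

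**Figure D3:**
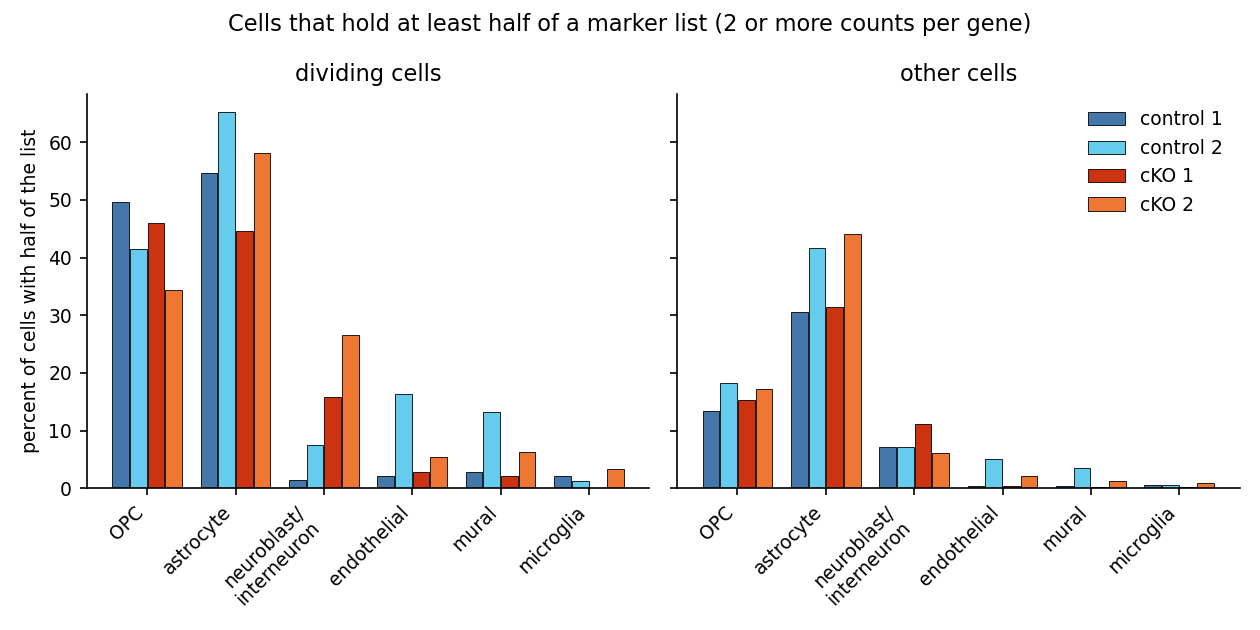
Percent of dividing (left) and other (right) cells of each D1Tom library that held a marker list, with 2 or more counts for each counted gene. The neuroblast and interneuron list was held by 2 of 139, 17 of 227, 22 of 139 and 64 of 241 dividing cells in control 1, control 2, cKO 1 and cKO 2.

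Foxp2, the targeted gene, was low in dividing cells. Its level was 20.9 and 33.8 CPM (control 1, then control 2) against 20.4 and 29.7 (cKO 1, then cKO 2), where CPM, the usual scaling of counts to library size, was computed on the counts summed over the dividing cells of a library. The groups overlapped, and the fitted log2 difference between cKO and control was -0.07 ± 0.37 (SE; edgeR adjusted p = 1.00). Among the other cells Foxp2 was at 37.4 (control 1) and 39.8 CPM (control 2), with 27.1 (cKO 1) and 17.8 (cKO 2). The sources used here do not say which part of the transcript the floxed segment covers, and the kit reads 3′ ends, so the count may come from outside the deleted part and does not check the labels. Emx1, which marks the lineage that carries Cre, was at 8.70, 10.5, 6.01 and 6.00 CPM in dividing cells. Drd, the table's name for what was taken to be the D1 receptor gene, was at 19.1 (control 1) and 36.6 CPM (control 2), with 3.61 (cKO 1) and 11.2 (cKO 2). Both cKO libraries were below both controls (log2 -1.81 ± 0.59; edgeR adjusted p = 1.00, and 0.0447 with the batch number as a block). Sfxn1, a mitochondrial serine transporter, was at 1540 (control 1) and 1238 CPM (control 2), with 705 (cKO 1) and 584 (cKO 2) (log2 -1.04 ± 0.25; edgeR adjusted p = 1.00, and 0.0268 with the block). Sfxn1 in the other cells showed the same order, at 1444, 1305, 733 and 537 CPM.

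Ventral forebrain and neuroblast genes had higher levels in the dividing cells of the cKO libraries. In the edgeR fit of all libraries with the default filter none passed the test, and with the batch as a block some did. Of 12017 genes tested on the summed counts, 0 passed an adjusted p of 0.05 in edgeR (0%), and 324 had an unadjusted p below 0.05. DESeq2 called 13 (0.09%), Dlx5 among them (adjusted p = 5.12e-09). Without control 1 edgeR called 60 genes, and without control 2 it called 25. Since the labels place each control with 1 cKO library on the same day, the fit with the batch number as a block is given beside it. With 1 library per group in each batch, little is left to estimate a gene's own spread. The p-values with the block therefore lean on spread pooled over genes. The block does not remove sex, which differed between the libraries of batch 2. The fit with the block called 41 genes (0.341%), 25 higher (0.208%) and 16 lower (0.133%) in cKO. Of the 11 neuroblast and interneuron genes tested, 11 had a positive log2 difference and 6 were called with the block, among them Dlx1, Dlx2, Dlx5, Sp8 and Sp9. The list's median log2 difference without the block was 1.41, against -0.02 over all genes tested. Dlx2 is one of the 3 genes used to describe the lineages, so this list restates part of that description.

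Dlx2 was at 3.05 and 16.8 CPM in control 1 and control 2, and at 166 and 174 in cKO 1 and cKO 2. The groups did not overlap. The log2 difference was 4.03 ± 0.63 (edgeR adjusted p = 0.620, and 0.00278 with the block). The next 3 genes have the smallest p-values without the block. Igfbpl1, expressed in young migrating neurons, was at 8.27, 10.0, 99.8 and 151 CPM in the same order (log2 3.82 ± 0.34; edgeR adjusted p = 0.128, and 0.000233 with the block). Sp9, a zinc finger factor of developing interneurons, was at 6.53, 8.39, 69.0 and 89.7 CPM. Its log2 difference was 3.44 ± 0.31, with an adjusted p in edgeR of 0.128 and, with the block, of 0.000439. Dlx5, a homeobox gene of the same family as Dlx2, was at 2.18, 6.29, 60.1 and 57.0 CPM. Its log2 difference was 3.71 ± 0.44, with an adjusted p in edgeR of 0.265 and, with the block, of 0.00278. In each of these genes the lower cKO library was above the higher control.

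Further genes are described from those called higher with the block. Gsx2, a patterning gene of the ventral forebrain named after its values were seen, was at 7.40 (control 1), 3.26 (control 2), 25.3 (cKO 1) and 24.0 CPM (cKO 2). Insm1, a zinc finger factor of dividing neuronal progenitors, was at 2.18, 5.83, 52.1 and 70.6 CPM. The D-type cyclin Ccnd2 was at 607, 591, 1267 and 1370 CPM, and Sox11, a factor of newborn neurons, at 413, 459, 761 and 1151 CPM. In all 4 genes the cKO libraries were above the controls. Genes of later interneurons did not pass in either fit. Gad1, which makes the transmitter GABA, was at 14.8, 31.0, 29.3 and 37.9 CPM, with overlapping groups, and Gad2 at 13.1, 30.8, 40.1 and 61.6. Dcx, a microtubule protein of migrating neurons, was at 184, 281, 196 and 381 CPM, and its groups also overlapped. In cortical intermediate progenitors Eomes and Neurog2 would mark the excitatory lineage. Eomes had 2 counts in the dividing cells of cKO 1, 4 in those of cKO 2 and 0 in the controls, and Neurog2 had 7 counts in 1 cell of cKO 2 and 0 elsewhere.

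**Figure D4:**
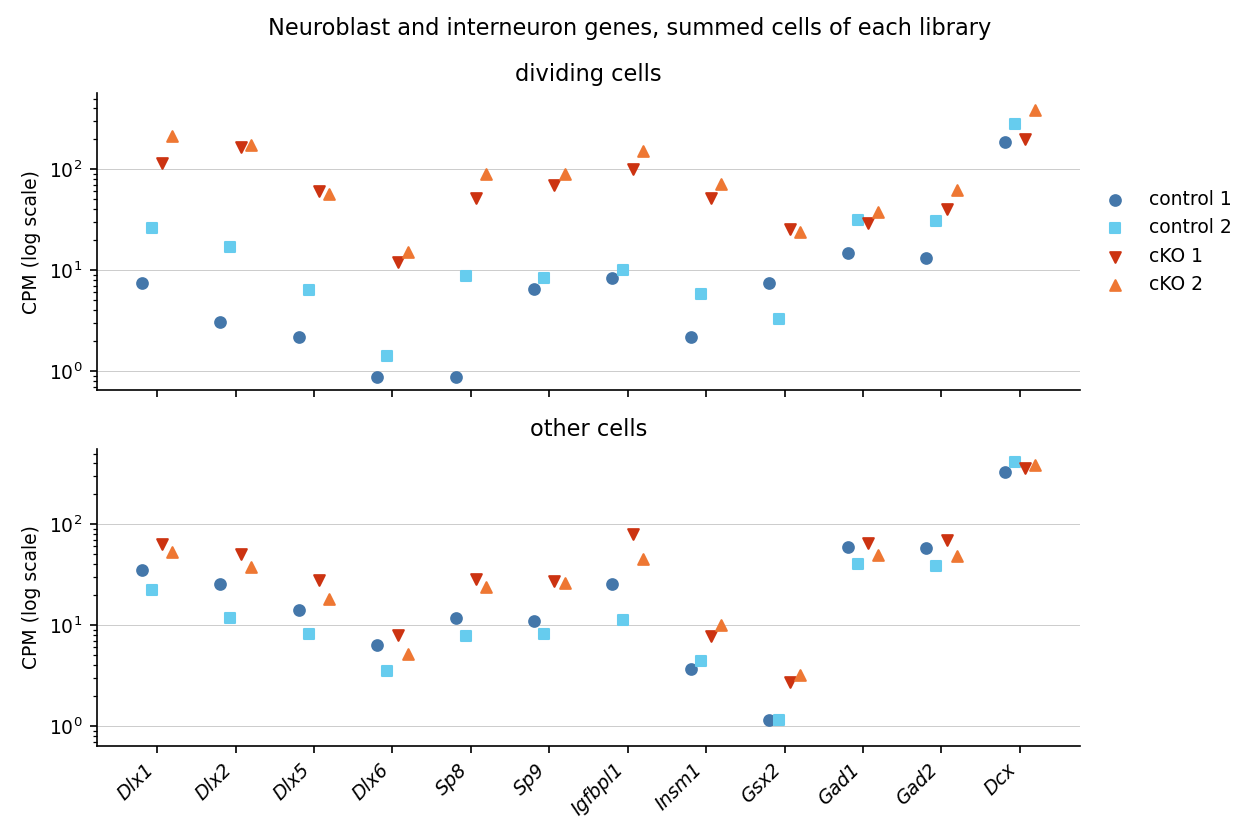
Level of neuroblast, progenitor and interneuron genes in CPM (log axis) in the summed dividing (top) and other (bottom) cells of each D1Tom library. In dividing cells Dlx2 stands at 3.05 and 16.8 in the controls and at 166 and 174 in the cKO libraries, while Gad1 and Dcx overlap between the groups; in control 1 the points of Dlx6 and Sp8 rest on 2 counts each, and Dlx6, like Gsx2, was chosen after its values were seen.

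In summed counts, more cells of a type and more RNA per cell cannot be told apart, but cells with a count can be set beside the sums. Dlx1 had 17 counts in 6 dividing cells of control 1, 113 counts in 35 cells of control 2, 287 counts in 31 cells of cKO 1 and 778 counts in 112 cells of cKO 2. Both the sums and the numbers of cells were lowest in control 1 and highest in cKO 2. The same direction was seen among cells that were not dividing. There Dlx1 was at 35.3 (control 1) and 22.4 CPM (control 2), with 63.6 (cKO 1) and 52.8 (cKO 2), and Dlx2 at 25.2, 11.7, 50.6 and 37.3. The whole neuroblast and interneuron list summed to 723 and 1033 CPM in dividing cells of the controls and to 1437 and 2188 in those of the cKO libraries. In other cells it summed to 2180, 1985, 2069 and 1798, with no such order. The labels' protocol has the olfactory areas removed before dissociation, and how completely this was done in each library was not tested.

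The 71 dividing cells with Dlx2 as their largest count were also described on their own, and their part in these sums was not tested. Dlx1 had a count in 93.0% of them, Insm1 in 83.1%, Sp9 in 78.9%, Sp8 in 71.8%, Gsx2 in 49.3% and Gad1 in 47.9%. In the other cells with Dlx2 as largest count the shares were 73.3%, 9.92%, 41.3%, 41.2%, 2.93% and 67.2%. After thinning to 2000 counts Insm1 was found in 33.8% of the dividing and 3.94% of the other cells, and Gad1 in 9.86% and 37.5%. Progenitor genes were thus more often found in the dividing cells and Gad1 less often, by values alone. Of the 71 dividing cells 2 came from control 1, 5 from control 2, 18 from cKO 1 and 46 from cKO 2. The controls thus had too few for a fit, and most of the profile comes from cKO 2.

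Genes lower in the cKO libraries with the block were of mixed kinds. The mitochondrial gene mt-Co2, which the fit of the Aqp4 alone class also names, was at 70.5 (control 1) and 194 CPM (control 2), with 6.82 (cKO 1) and 22.6 (cKO 2) (log2 -3.07 ± 0.70; edgeR adjusted p = 1.00, and 0.000384 with the block), and the other cells showed 84.4, 247, 8.93 and 33.4. Vtn, a pericyte gene, was at 23.1, 45.7, 5.61 and 15.5 CPM. The globin gene Hba-a2 was at 22.6, 829, 5.61 and 231 CPM, so that its groups overlapped, with each cKO library below the control of its batch (adjusted p = 0.00278 in edgeR with the block). Without control 2 its log2 difference was 2.58, in the other direction. None of the 7 endothelial and 5 mural genes tested had a positive log2 difference, and their medians were -0.60 and -0.86. The endothelial list summed to 483, 1314, 408 and 666 CPM, the mural list to 316, 790, 217 and 406, and the erythroid list to 65.3, 4617, 17.6 and 1294. In each of these sums control 2 was highest, and both libraries of batch 2 were above both of batch 1. Within each batch the cKO library was below the control. The part of these lists in the results for other genes was not tested.

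No gene of the mitosis, replication, cell cycle control or chromatin lists was called between the groups in edgeR without the block. DESeq2 and the fit with the block each called Cdca7 of the replication list (20.0, 19.4, 74.2 and 95.1 CPM) and Ccnd2 of the cell cycle control list, both higher. Of 45 mitosis genes 23 had a positive log2 difference, with a median of 0.01. Within the classes this list went in opposite directions, with 35 of 45 positive in Pdgfra alone dividing cells (median 0.17) and 4 of 45 in Aqp4 alone dividing cells (median -0.35), none of them called. Of 26 replication genes 19 were positive over all dividing cells, with a median of 0.15. Of 11 chromatin proteins of dividing cells 10 were positive there (median 0.40), 10 in the Pdgfra class (median 0.25) and 2 in the Aqp4 class (median -0.14). The oligodendrocyte precursor list had 0 of 8 positive genes and a median of -0.20, with none called, and the astrocyte list had 5 of 9 and a median of 0.03.

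Within single classes the groups were harder to tell apart. In Pdgfra alone dividing cells (45, 24, 41 and 24 cells), 0 of 7131 genes passed in edgeR (0%), with 167 at an unadjusted p below 0.05, and 0 with the block or in DESeq2. With 1 library left out edgeR called 2 to 20 genes. The smallest p-values belonged to Cyp26b1 (log2 2.49 ± 0.54), Rasgrf2 (-4.70 ± 1.06) and Npy (-3.80 ± 0.97), each with an edgeR adjusted p of 0.999. In Aqp4 alone dividing cells (56, 87, 36 and 54 cells), 0 of 9120 genes passed in edgeR (0%), with 93 at an unadjusted p below 0.05 and 0 in DESeq2. The smallest p-values belonged to Acot2 (log2 -2.97 ± 0.75), mt-Co2 (-2.76 ± 0.72) and Galnt4 (1.98 ± 0.55), each with an edgeR adjusted p of 1.00, and with the block 1 gene was called (0.011%), mt-Co2, which was lower. Without control 2 edgeR called 248 genes, without control 1 32 and without cKO 1 5. Sfxn1 had a log2 difference of -1.004 ± 0.33 in the Pdgfra class and -1.24 ± 0.37 in the Aqp4 class, close to its value over all dividing cells, and was not called in either class (edgeR adjusted p = 0.999 and 1.00). Drd was at 27.2, 67.8, 5.69 and 9.19 CPM in the Pdgfra class, from 17, 20, 3 and 2 counts, and at 13.9, 21.8, 0 and 6.58 CPM in the Aqp4 class. Foxp2 was at 38.4, 50.8, 7.59 and 32.2 CPM in the Pdgfra class and at 2.32, 26.5, 3.04 and 3.95 CPM in the Aqp4 class.

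Dividing cells were next set beside the other cells of the same class, with the library as a block. The rule chose the cells by their counts, so these values are a description and no support is drawn from them. In the Pdgfra alone class, 1877 of 10235 genes passed an adjusted p of 0.05 in edgeR (18.3%), 1000 higher (9.77%) and 877 lower (8.57%) in dividing cells. In the Aqp4 alone class 4469 of 12354 did (36.2%), 1957 higher (15.8%) and 2512 lower (20.3%). The classes rest on a single count, and with at least 3 counts asked of the lineage gene the numbers were 1061 of 10726 (9.89%; 5.99% higher and 3.91% lower) and 3268 of 11928 (27.4%; 13.9% higher and 13.5% lower).

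The rule asks for mitosis genes, and mitosis genes accordingly had the largest differences of the lists. Of 45 mitosis genes 45 were higher in both classes, with median log2 differences of 4.30 in the Pdgfra class and 4.53 in the Aqp4 class. In the Pdgfra class Ccnb1, the cyclin of mitotic entry, was at 387, 244, 668 and 345 CPM in dividing cells and at 9.77, 5.52, 22.1 and 3.49 in other cells, in the order control 1, control 2, cKO 1, cKO 2. The chromatin protein Hmgb2 was at 1168, 729, 1467 and 1067 CPM against 69.9, 55.2, 101 and 98.1. In the Aqp4 class Ccnb1 was at 444, 192, 293 and 184 CPM against 8.28, 7.69, 7.34 and 8.51. Replication genes were higher by less, with median log2 differences of 1.36 (15 of 22 called) and 1.67 (24 of 25 called).

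In the Pdgfra alone class, genes of the precursor state were mostly higher in dividing cells. Olig2, the transcription factor that specifies the lineage, was at 1091, 481, 782 and 474 CPM in dividing cells and at 606, 171, 542 and 303 in other cells (log2 0.83 ± 0.13). Of the 7 oligodendrocyte precursor markers tested, 4 were called higher and 0 lower (median 0.54, against -0.02 over all genes). Sox2, a progenitor factor, was at 275, 278, 287 and 317 CPM against 137, 92.8, 168 and 171 (log2 1.01 ± 0.14). In both genes each library had the higher level in its dividing cells. With at least 3 counts of Pdgfra the precursor markers were 0 higher and 1 lower of 7, and Sox2 was still called higher.

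Genes of oligodendrocyte differentiation went both ways in this class. Gpr17, a receptor that appears in committed precursors, was at 478, 390, 655 and 317 CPM in dividing cells and at 218, 154, 361 and 200 in other cells (log2 0.98 ± 0.13), and it was called higher also with at least 3 counts of Pdgfra (0.36). Mbp, which encodes a myelin protein, was lower, at 24.0, 50.8, 64.5 and 41.4 CPM against 30.0, 99.8, 265 and 62.3 (log2 -1.25 ± 0.23; edgeR adjusted p = 0.000148). With the class taken by the largest count its log2 difference was -0.35 and it was not called (edgeR adjusted p = 0.508), and 4 genes of the differentiation list were called higher and 0 lower. Without cKO 1 it was -0.71, also not called (adjusted p = 0.100), and over its alternatives the adjusted p ran from 9.23e-08 to 0.508. Neuronal genes were lower too. All 7 excitatory neuron markers were called lower (median -1.03), as were 7 of 11 neuron maturation genes (median -0.64). Neurod6, a factor of cortical projection neurons, was at 144, 268, 116 and 161 CPM in dividing cells and at 415, 419, 318 and 212 in other cells. With at least 3 counts of Pdgfra, 3 of 7 and 4 of 12 were called lower. The excitatory neuron list was held by 11 of 134 dividing and 196 of 1198 other cells of the class, so the class by any count contains cells with neuronal transcripts. Beyond the lists, the smallest p-values among lower genes belonged to Hbb-bs, Cck, Reln, Snhg11, Cd24a, Gng3, RP23-189L19.6, Mllt11, Ndnf and Sncb. Reln, an extracellular matrix protein of Cajal-Retzius cells and interneurons, had a log2 difference of -2.61 ± 0.27 and of 0.96 with at least 3 counts of Pdgfra, so its direction depends on how the class is cut.

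In the Aqp4 alone class, most radial progenitor markers were higher in dividing cells. Of 11 radial progenitor markers 7 were called higher and 0 lower (median 0.45, against -0.06 over all genes). Nes, an intermediate filament of neural progenitors, was at 52.1, 86.7, 91.1 and 73.7 CPM in dividing cells and at 20.4, 27.6, 13.6 and 24.5 in other cells (log2 1.79 ± 0.21), and Vim, its partner filament, at 205, 260, 212 and 234 CPM against 102, 79.5, 53.8 and 75.4 (1.55 ± 0.15). Both are also expressed by vascular cells. Notch1, the receptor that holds progenitors undifferentiated, was at 197, 173, 197 and 149 CPM against 98.6, 91.8, 113 and 83.9 (log2 0.86 ± 0.11). Id1, an inhibitor of differentiation that endothelial cells express as well, was at 969, 448, 496 and 410 CPM against 675, 269, 270 and 227. These 4 genes were higher in dividing cells of every library. Notch1 and Id1 are examples from the separate list of Notch and progenitor factors, whose counts are not given here. With at least 3 counts of Aqp4, 5 of 11 radial progenitor markers were called higher and 1, the Notch target Hes5, lower.

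Genes of astrocyte maturation were level or lower. Of 11 tested, 0 were called higher and 3 lower (median -0.09). Aldoc, a glycolytic enzyme that increases as astrocytes mature, was at 554, 203, 275 and 280 CPM in dividing cells and at 895, 400, 414 and 508 in other cells (log2 -0.81 ± 0.11), and was lower in every library. Clu, a secreted chaperone, and S100b, a calcium-binding protein, had log2 differences of -0.45 ± 0.13 and -0.49 ± 0.18. With at least 3 counts of Aqp4, 7 of 11 were called lower and 0 higher. Neuronal genes were lower by more than in the Pdgfra class, with 7 of 7 excitatory neuron markers (median -2.13) and 11 of 12 neuron maturation genes (median -1.78) called. With at least 3 counts of Aqp4 these were 6 of 7 and 8 of 12. Snap25, a protein of synaptic vesicle fusion, was at 37.1, 86.1, 44.0 and 63.1 CPM in dividing cells and at 227, 387, 299 and 289 in other cells. The other lower genes with the smallest p-values were Crmp1, Neurod6, Ly6h, Slc17a7, Celf4, Stmn4, Cnih2, Stmn3 and Ttc9b. Foxp2, Drd and Emx1 were lower in dividing Aqp4 alone cells as well, with log2 differences of -1.44 ± 0.36, -1.85 ± 0.30 and -1.44 ± 0.31. In other cells of this class the excitatory neuron list was held by 450 of 3572 cells, and in dividing cells by 10 of 233.

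Vascular genes were higher in dividing cells of the Aqp4 alone class. All 7 endothelial and 5 mural genes were called higher in dividing cells (medians 2.64 and 2.56), also with at least 3 counts of Aqp4. Cldn5, a tight junction protein of brain endothelium, was at 60.2, 776, 246 and 535 CPM in dividing cells and at 49.0, 116, 3.55 and 105 in other cells, which is a small difference in control 1 and a large one elsewhere. Rgs5, a pericyte gene, was at 140, 913, 299 and 589 CPM against 41.9, 145, 23.0 and 118. The endothelial list was held by 29 of 233 dividing and 52 of 3572 other cells of the class. In the Pdgfra alone class it was held by 1 of 134 and 15 of 1198, and Cldn5 was lower in dividing cells there (log2 -2.21 ± 0.37). The Aqp4 alone dividing cells are therefore better called by their rule than astrocytes. How far those that held a vascular list move the other genes was not tested.

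**Figure D5:**
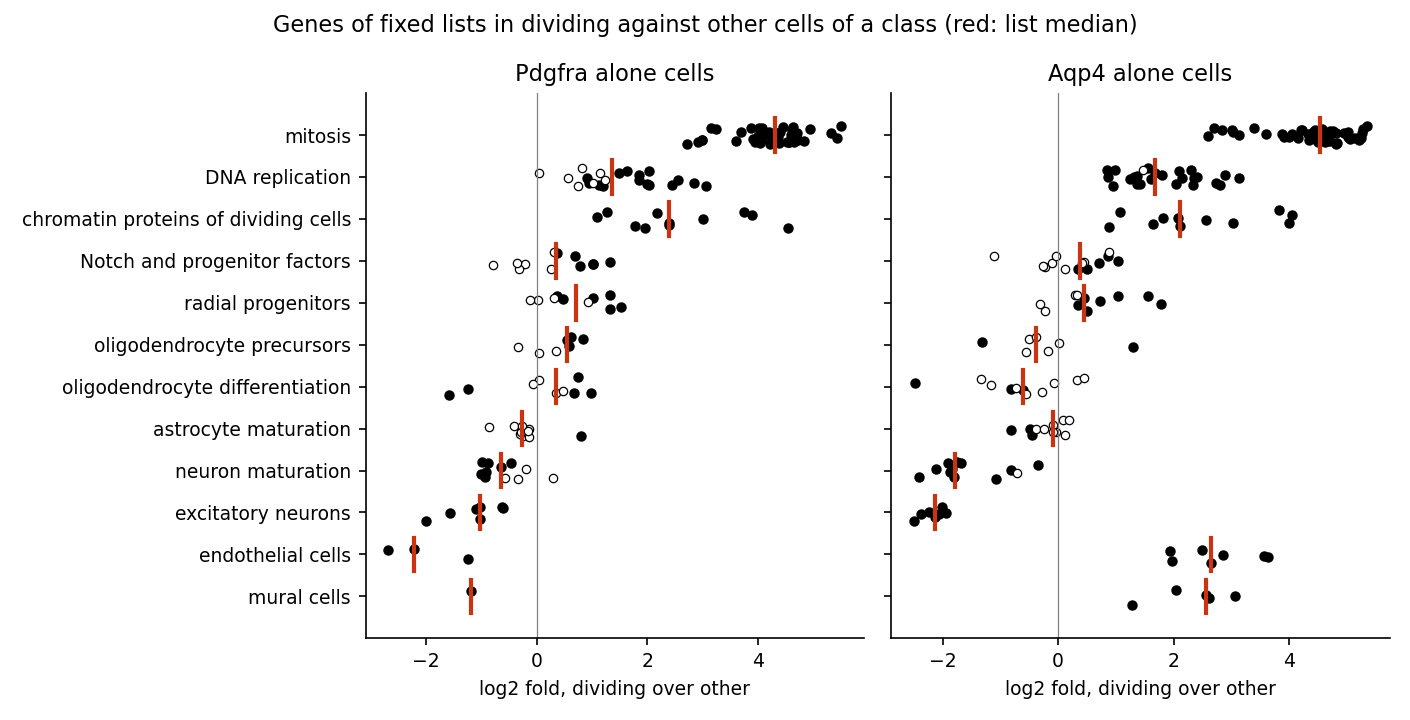
Log2 fold of dividing over other cells (horizontal axis) for the genes of fixed lists in the Pdgfra alone (left) and Aqp4 alone (right) classes, 1 point per gene, filled where the edgeR adjusted p was below 0.05, with the list median as a red bar. Mitosis genes have medians of 4.30 and 4.53, excitatory neuron markers of -1.03 and -2.13, and endothelial markers of -2.21 and 2.64.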

How the data were processed

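Per the submitters' processing notes, the authors used bcl2fastq 2.17.1.14, Cell Ranger 2.1.1, FastQC 0.11.5, UMI-tools 0.5.4, STAR 2.5.2b, Subread 1.6.2 (featureCounts) and SAMtools 1.6 with GRCm38.p6 (mm10). The deposited values are whole counts per gene and cell, in one table for the D1Tom and one for the GTE sort, which was used for 1 count only. Their low values do not fall off as single molecules would in every library (1 count was rarer than 2 in control 1 and cKO 1), so no counting error is given for sums.

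The members and gene lists were chosen with earlier results of these data known. Cells were classed by counts above 0. Doublets were scored per library with Scrublet in scanpy 1.11.5, whose own threshold marked 4, 5, 1 and 0 cells and was not used, and all cells were kept. Counts were summed per library and tested with edgeR 4.0.16 (quasi-likelihood test, TMM, default filter, Benjamini-Hochberg threshold 0.05), with DESeq2 1.42.0 as an alternative. Shares were compared by exact two-sided permutation over libraries, with exact binomial intervals (95%). The labels tie the replicate number to the batch, so it pairs the libraries; deviations of control 1 and cKO 1 from their group means correlated across 11974 genes (r = 0.435; genes are not independent replicates). Named genes were those of the lists, the 10 of smallest p per direction, or the 3 of smallest p where fewer than 3 passed. On simulated counts for the comparison of all dividing cells (11984 genes), 95.2% of changes of 4-fold and 23.2% of 2-fold were recovered. The simulation gave every gene the same spread, had no difference between batches and changed only genes well counted in every library. It therefore does not give the share of real changes that the fit would find. Alternatives covered depth, rule, class, doublets, filter, normalization, tool, block and each library left out. Some genes of the lists were counted but are not reported here by name.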

Additional observations from a re-analysis of the deposited data

Results flagged for a closer look

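The second sort of the series, GTE, took golli-τ-eGFP+ cells of control and Foxp2 cKO mice at the same age as the D1Tom sort. The GTE sort was outside the comparisons, and its cKO libraries held more cells that meet the rule for dividing cells than its controls. In GTE cKO 1 the share was 3.19% (46 of 1440 cells, exact 95% binomial interval 2.35 to 4.24%), and in GTE cKO 2 it was 0.684% (20 of 2923). In the GTE controls it was 0.0760% (3 of 3948) and 0.261% (8 of 3071). The median count per cell was 2982 and 1268 in the cKO libraries and 1085.5 and 1163 in the controls. At 1000 counts per cell, 2 of 1430 and 5 of 1901 cKO cells met the rule, against 0 of 2196 (a count of 0 allows a share of up to 0.137% by 3 counts of the total, and the exact 95% upper bound is 0.168%) and 1 of 1827 control cells. The part of depth in the difference at full counts was not tested beyond this. None of these dividing cells had Dlx2 alone, and 26 of the 46 in GTE cKO 1 had Pdgfra alone.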

How the results depend on the processing

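The cKO minus control difference in the share of dividing cells (-0.524 percentage points) was 0.0417 at 4000 counts per cell and ranged from -3.10 to 2.05 with 1 library left out (2.05 without control 2, 0.915 without cKO 1). That of the Pdgfra alone share (-1.75) was 8.86 at 1000 and 0.135 at 2000 counts, and -12.6 to 9.15 with 1 library left out. The Aqp4 alone difference (-15.2) stayed negative but was -7.92, -5.60 and -7.14 at 1000, 2000 and 4000 counts, with groups that met at 1000 and overlapped at 2000 (p = 0.667 each, exact permutation), -7.69 at 3 counts or more, and -16.9 to -13.4 with 1 library left out. The Dlx2 alone difference (5.27) stayed positive, at 4.75, 10.5 and 9.02 at those depths and 4.37 to 6.17 with 1 library left out, but within batch 2 it was -5.88 at 1000 counts. The Pdgfra minus Aqp4 difference in the share dividing (3.83) was 1.06 to 4.63 at equal depth and 2.43 to 5.04 with 1 library left out. The Aqp4 minus Dlx2 difference in the share dividing (1.04) was -0.961, -1.22 and -1.54 at 1000, 2000 and 4000 counts, -2.64 by largest count, -5.50 at 3 counts or more, and -0.951 to 3.98 with 1 library left out. The causes were not tested.

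Genes called between the groups in all dividing cells (0) were 13 in DESeq2, 15 without the filter, 41 with the replicate block and 0 to 60 with 1 library left out (60 without control 1, 25 without control 2). In the Pdgfra class (0) they were 20 without the filter and 2 to 20 with 1 library left out. In the Aqp4 class (0) they were 18 without the filter, 1 with the replicate block and 0 to 248 with 1 library left out (248 without control 2). A group left with 1 library is assumed to vary like the other. Genes called between dividing and other Pdgfra alone cells (1877) were 1061 at 3 counts or more, 1096 in DESeq2, 1169 with no replicate block, 442 at 2000 counts and 1064 to 1692 with 1 library left out; for Aqp4 alone cells (4469) they were 1200 at 2000 counts and 3426 to 4457.

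Between the groups, log2 differences changed sign for Dcx (-0.24 without cKO 2 to 0.83 without cKO 1), for Hba-a1 (-8.04 without cKO 2 to 2.58 without control 2) and Hba-a2 (-6.28 to 2.58, likewise), and for Foxp2 at 2 counts or more per rule gene (0.12), without high doublet scores (0.053) and with 1 library left out (-0.43 to 0.41). Between dividing and other cells they did so for Foxp2 in the Pdgfra class with 1 library left out (-0.45 to 0.079), at 3 counts or more and by largest count for Ndnf (0.80, 0.13) and Reln (0.96, 0.10), and at 3 counts or more for Hbb-bs in the Aqp4 class (-3.49). With 2 libraries a group, the exact permutation p of a share difference cannot go below 0.333.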
